A study of Mus musculus with 12 samples.

Results

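Collagen chains are the polypeptides that fold in trimers into the collagens of the extracellular matrix. Their genes were taken as every gene of the count table whose mouse symbol is Col, a number, the letter a and a number, which gave 44 of 47729 genes. By the collagen type in the symbol they comprised 11 fibrillar chains, 3 short-chain network chains, 9 chains of fibril-associated collagens with interrupted triple helices (FACIT) and 6 chains of the basement membrane network, collagen IV. The others were 6 chains of the beaded filaments of collagen VI, 1 of the anchoring fibrils of collagen VII, 2 multiplexins, 4 transmembrane collagens and 2 chains outside these classes. Of the 44, 36 had enough reads to be tested, among 15336 tested genes.

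RNA-seq of hearts from male C57BL/6 mice, aged 8 weeks, gave 12 libraries in 4 groups of 3. The control group carried subcutaneous osmotic pumps with saline for 28 days, and the other groups carried pumps with angiotensin II (Ang II), the peptide hormone that constricts vessels and stimulates cardiac fibrosis. During the last 2 weeks the Ang II groups were given vehicle, EHP-101 by mouth at 20 mg/kg, or losartan at 0.6 g/L in the drinking water. The compound EHP-101 has the cannabinoid receptor CB2 and the nuclear receptor PPARγ as targets. Losartan blocks the AT1 receptor through which Ang II acts. "Ang II control" stands in the titles of the control group too, which was taken as the saline group from its treatment label. The labels name the tissue as heart without saying which part, and they do not say whether replicates were separate animals, so the spread that p-values measure may be technical. In RNA from whole tissue, more cells of a kind and more RNA per cell cannot be told apart.

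In the heart, fibroblasts make most of the fibrillar collagen, while endothelial cells, mural cells and cardiomyocytes lie on basement membranes built on a collagen IV sheet. Fibrillar collagens assemble into the banded fibrils that bear tension, FACIT collagens sit on the surface of those fibrils, and collagen VI filaments lie between fibrils and basement membranes. Fibrosis is the accumulation of this matrix, and after pressure load it occurs around vessels and between muscle fibres.

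The level of each chain was compared per kilobase of exon, in RPKM. These are the reads of a gene divided by its exon length and by the library total corrected for composition. Averaged over the 12 libraries, the collagen IV chain Col4a1 was the highest at 106 RPKM, followed by Col3a1 of collagen III at 82.7 and Col4a2 at 81.8. These 3 chains held 50.6% of the summed collagen level. They were followed by Col6a1, Col1a1, Col1a2, Col15a1, Col6a2, Col5a2 and Col8a1, at 41.8 down to 15 RPKM, and the first 10 chains together held 86.4%. The other 34 members lay between 12.3 RPKM, for Col5a1, and values near 0. The 8 untested members were Col2a1, Col6a4, Col6a5, Col9a1, Col10a1, Col17a1, Col19a1 and Col24a1, with 2 to 327 reads each over all 12 libraries and too few libraries above the filter's limit. Tested without the filter in edgeR under Ang II, none of the 8 passed, with a smallest adjusted p of 0.09 for Col24a1. Of the tested members, Col9a2 passed the filter on low counts without any control library above its limit of 0.426 CPM (reads scaled to the library total). Col11a1 and Col26a1 passed it with 1 of 3. These chains entered the test mainly through the groups given Ang II, so the filter favoured a higher level there.

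The libraries held 22155418 to 24040516 counted reads. Reads of the 44 collagen chains made up 0.287%, 0.135% and 0.317% of them in control replicates 1, 2 and 3, and 0.728%, 0.473% and 0.797% under Ang II. The share was 0.341%, 0.435% and 0.52% with EHP-101, and 0.246%, 0.449% and 0.404% with losartan. Control replicate 2 stood apart from all other libraries, at -84.37 on the first principal component against -12.72 to 32.41, and it was the lowest of the 12 libraries for 31 of the 36 tested chains. Within the Ang II group, replicate 2 was the lowest for 31 of 36. Values below are CPM with the library total corrected for composition, given for replicates 1, 2 and 3 in that order.

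Ang II raised 10 of the 36 tested chains and lowered 0 at an adjusted p under 0.05 by edgeR's quasi-likelihood test, with p-values adjusted by Benjamini-Hochberg across the whole set of tested genes. Of all 15336 tested genes, 0.515% were called higher and 0.0261% lower. The 10 chains were 4 fibrillar ones (Col1a2, Col3a1, Col5a2 and Col11a1), both tested short-chain network chains (Col8a1 and Col8a2) and 4 FACIT chains (Col9a2, Col12a1, Col16a1 and Col22a1). No chain of collagen IV or VI and none of the multiplexins passed in edgeR. Of the 10, Col9a2 and Col11a1 are those that entered the test mainly through the Ang II groups. Without regard to adjustment, 25 of 36 chains were higher at p under 0.05 (9.09% of all tested genes), and 25 lay higher in every Ang II library than in any control library (12.3% of all tested genes). The median log2 fold change over the 36 chains was 1.09, against -7e-04 over all tested genes, and 34 of them lay above 0, where 49.9% of all tested genes did.

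**Figure D1:**
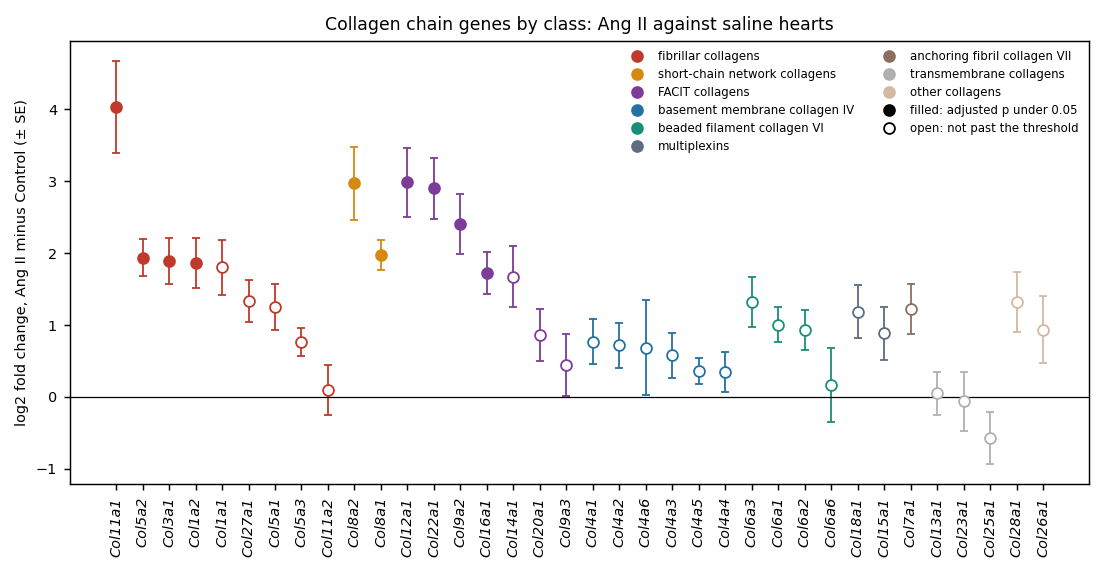
Log2 fold change of each of the 36 tested collagen chain genes, Ang II minus control, with its SE, ordered by class and by size within the class. Filled points passed the adjusted threshold in edgeR and open points did not. The 10 filled points all lie in the fibrillar, short-chain network and FACIT classes, and the collagen IV points lie between 0.35 and 0.77.

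Class medians of the log2 fold change were 2.47 for the 2 short-chain network chains, 1.80 for 9 fibrillar chains and 1.73 for 7 FACIT chains. They were 1.03 for the 2 multiplexins, 0.97 for 4 collagen VI chains and 0.63 for 6 collagen IV chains. The 3 transmembrane chains had a median of -0.06. These medians describe the classes and were not tested against each other.

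Collagen VIII is a short-chain collagen that forms hexagonal lattices in the vessel wall and beneath the endothelium. Its α1 chain, Col8a1 (ENSMUSG00000068196, chr16:57624258-57754737 on the minus strand), had the second smallest p of all tested genes. In the control libraries Col8a1 stood at 39.3, 44.2 and 54.2 CPM, against 196, 141 and 204 CPM under Ang II, 133, 168 and 172 CPM with EHP-101 and 104, 91.6 and 67.6 CPM with losartan. All 3 Ang II libraries lay above all 3 control libraries. Its log2 fold change was 1.97 ± 0.20 (SE), or 3.93-fold, with an adjusted p of 0.00176 by edgeR's quasi-likelihood test. Control replicate 2, low for most chains, lay between the other controls for Col8a1.

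The partner chain Col8a2 was scarcer. Col8a2 had 4.63, 1.35 and 3.21 CPM in control hearts, 28.6, 17.7 and 27.0 CPM under Ang II, 15.6, 8.84 and 26.8 CPM with EHP-101 and 7.34, 7.03 and 2.32 CPM with losartan. The groups again did not overlap, and the log2 fold change was 2.97 ± 0.51, or 7.83-fold, with an adjusted p of 0.0251 by edgeR's quasi-likelihood test. Per kilobase, Col8a2 stood at 0.121 ± 0.0779 (SD, n = 3) of Col8a1 in control hearts and at 0.235 ± 0.0181 under Ang II. The ratio was 0.189 ± 0.0909 with EHP-101 and 0.106 ± 0.0400 with losartan. It was higher in every Ang II library than in any control or losartan library, which an exact permutation test of 3 against 3 cannot take below a p of 0.1. The third short-chain member, Col10a1 of growing cartilage, was not tested.

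Promoter sequences are given for Col8a1 and for the fibrillar chains Col3a1 and Col11a1, as called members in which no annotated exon overlaps the stretch shown. They are the 150 bases before the RefSeq start on GRCm38.p6, read 5′ to 3′ on the strand of the gene, at chr16:57754738-57754887 (minus), chr1:45311388-45311537 (plus) and chr3:114030390-114030539 (plus). Capitals mark matches, on either strand, to CCAAT, to the GC box GGGCGG and to TATAAA.

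Col8a1: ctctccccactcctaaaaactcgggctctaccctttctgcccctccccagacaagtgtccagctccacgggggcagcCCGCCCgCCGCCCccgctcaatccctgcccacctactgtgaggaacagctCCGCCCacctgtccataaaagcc
Col3a1: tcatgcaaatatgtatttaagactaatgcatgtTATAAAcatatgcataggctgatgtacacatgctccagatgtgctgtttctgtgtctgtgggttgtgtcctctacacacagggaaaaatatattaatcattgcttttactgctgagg
Col11a1: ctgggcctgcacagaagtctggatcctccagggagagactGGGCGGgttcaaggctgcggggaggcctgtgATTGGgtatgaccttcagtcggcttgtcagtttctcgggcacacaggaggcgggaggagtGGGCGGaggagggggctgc

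The Col8a1 stretch held 3 GC boxes and the Col11a1 stretch 2 GC boxes and 1 CCAAT on its minus strand, and both were 64.7% G and C. The Col3a1 stretch held 1 TATAAA and was 37.3% G and C. In the 250 bases before the start, a GC box occurred in 22 of the 38 RefSeq promoters of 35 members and in 32.7% of all 32851 promoters, and CCAAT in 13 of 38 and 33.8%. TATAAA occurred in 5 of 38 and in 12.4% of all. Matches to different motifs shared no bases in the members' windows. The letters are a description of these stretches and no measure of binding.

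Among the fibrillar chains, collagens I and III carry most of the mass of cardiac fibrils, and collagens V and XI are the minor chains that start a fibril and limit its width. Col3a1 (ENSMUSG00000026043, chr1:45311538-45349706) encodes the only chain of collagen III. In the control libraries Col3a1 stood at 451, 246 and 478 CPM, against 1508, 966 and 1884 CPM under Ang II, 538, 796 and 934 CPM with EHP-101 and 512, 835 and 591 CPM with losartan. Every Ang II library exceeded every control library, and replicate 2 was the lowest within each of these groups. With Ang II the log2 fold change was 1.89 ± 0.32 with an adjusted p of 0.0235 by edgeR's quasi-likelihood test.

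The chains of collagen I, which trimerise as a pair of α1 and an α2 chain, had similar fold changes. Col1a2 had 207, 92.6 and 241 CPM in control hearts, 713, 421 and 834 CPM under Ang II, 348, 420.2 and 565 CPM with EHP-101 and 242, 356 and 247 CPM with losartan. Col1a1 had 146, 51.1 and 143 CPM in control hearts, 442, 249 and 493 CPM under Ang II, 216, 223 and 369.6 CPM with EHP-101 and 140.1, 215 and 164 CPM with losartan. Neither chain overlapped between control and Ang II libraries. The log2 fold change was 1.87 ± 0.35 for Col1a2, with an adjusted p of 0.0381, and 1.80 ± 0.38 for Col1a1, with an adjusted p of 0.0635, which missed the threshold of edgeR's quasi-likelihood test. Per kilobase, Col1a2 stood at 0.864 ± 0.107, 0.879 ± 0.0231, 0.885 ± 0.0976 and 0.860 ± 0.0609 of Col1a1 (SD, n = 3) in control, Ang II, EHP-101 and losartan hearts, and the groups differed by less than the spread between replicates.

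Col5a2, an obligate chain of the common form of collagen V, lies tail to tail with Col3a1 on chromosome 1, 24614 bases away. In the control libraries Col5a2 stood at 78.5, 45.6 and 84.0 CPM, against 288, 182 and 328 CPM under Ang II, 196, 206 and 254 CPM with EHP-101 and 141, 150.2 and 104 CPM with losartan. Control and Ang II libraries did not overlap, and the log2 fold change was 1.94 ± 0.26, or 3.83-fold, with an adjusted p of 0.00950 by edgeR's quasi-likelihood test. Its partner Col5a1 had a smaller difference. Col5a1 had 74.1, 29.2 and 80.2 CPM in control hearts, 169.6, 109 and 159 CPM under Ang II, 96.0, 122 and 138 CPM with EHP-101 and 70.6, 105 and 98.2 CPM with losartan. The log2 fold change of Col5a1 was 1.25 ± 0.32, with an adjusted p of 0.111. Relative to Col1a1 and per kilobase, Col5a1 stood at 0.392 to 0.442 in the control libraries and at 0.250 to 0.338 under Ang II, ranges that did not overlap, while Col5a2 stood at 0.367 to 0.611 and 0.446 to 0.499, which did.

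Col11a1, the α1 chain of collagen XI and best known from cartilage, had the largest fold change among the 36 tested chains. It had 15, 1 and 9 reads in the control libraries and 165, 82 and 230 under Ang II, or 0.626, 0.0538 and 0.375 CPM against 6.27, 3.41 and 8.62 CPM. With EHP-101 it stood at 2.20, 2.29 and 6.13 CPM and with losartan at 1.53, 1.51 and 0.548 CPM. Its log2 fold change was 4.03 ± 0.64, or 16.4-fold, with an adjusted p of 0.0191 by edgeR's quasi-likelihood test. It remained a minor chain, at 0.478 ± 0.205 RPKM (SD, n = 3) under Ang II against 148 ± 47.1 RPKM for Col3a1. The other tested fibrillar chains were Col27a1, Col5a3 and Col11a2, with log2 fold changes of 1.34, 0.76 and 0.10 and adjusted p of 0.0700, 0.114 and 0.901. Col27a1 and Col5a3 lay above the controls in all 3 Ang II libraries, and Col11a2, which trimerises with Col11a1 in cartilage, did not.

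**Figure D2:**
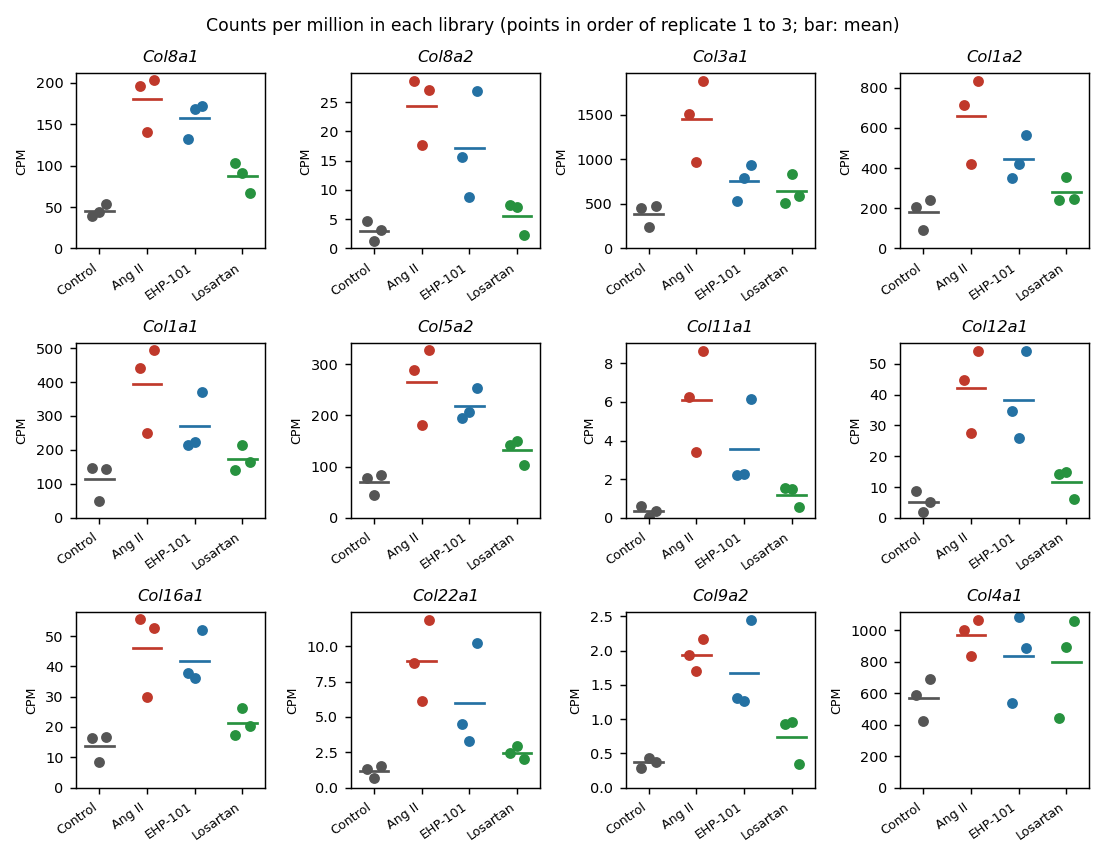
CPM of 12 collagen chain genes in each library, with replicates 1 to 3 from left to right and a bar at the group mean. Ang II points lie above all control points in each of the 12 panels, and losartan points lie below all Ang II points in each panel except that of Col4a1.

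The FACIT collagens bind to fibrils and link them to their surroundings. Col12a1, known from tendon and other tissue under load, had 8.60, 1.99 and 5.17 CPM in the control libraries and 44.7, 27.5 and 54.2 CPM under Ang II. With EHP-101 it stood at 34.8, 25.8 and 54.0 CPM and with losartan at 14.3, 14.8 and 6.28 CPM. Every Ang II and every EHP-101 library exceeded every control and every losartan library. The log2 fold change under Ang II was 2.98 ± 0.48, or 7.91-fold, with an adjusted p of 0.0196 by edgeR's quasi-likelihood test. Relative to Col1a1 and per kilobase, Col12a1 stood at 0.0193 ± 0.00532 in control hearts and 0.0461 ± 0.00218 under Ang II (SD, n = 3), with no overlap. The ratio was 0.0608 ± 0.00997 with EHP-101 and 0.0300 ± 0.0137 with losartan.

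Col14a1, the FACIT chain closest to Col12a1 in build, was the more abundant at rest. Col14a1 had 35.8, 10.8 and 38.6 CPM in control hearts, 113, 59.1 and 100.4 CPM under Ang II, 55.5, 56.1 and 68.0 CPM with EHP-101 and 30.9, 70.4 and 36.0 CPM with losartan. Its log2 fold change was 1.67 ± 0.42, with an adjusted p of 0.114, so it did not pass although the groups did not overlap. Its ratio to Col1a1 was 0.227 ± 0.0282 in control hearts and 0.217 ± 0.0244 under Ang II, a difference within the spread, and the ratio of Col12a1 to Col14a1 was 0.0858 ± 0.0245 against 0.215 ± 0.0329, with no overlap.

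Col16a1, a chain found in smooth muscle and at the surface of thin fibrils, was the most abundant FACIT chain that passed. In the control libraries Col16a1 stood at 16.4, 8.29 and 16.8 CPM, against 55.5, 29.7 and 52.5 CPM under Ang II, 37.6, 36.1 and 51.8 CPM with EHP-101 and 17.2, 26.3 and 20.5 CPM with losartan. The log2 fold change was 1.73 ± 0.29 with an adjusted p of 0.0239 by edgeR's quasi-likelihood test. Col22a1, which is known from the junction of muscle with tendon, was scarcer. Col22a1 had 1.34, 0.70 and 1.5 CPM in control hearts, 8.85, 6.15 and 11.8 CPM under Ang II, 4.48, 3.32 and 10.2 CPM with EHP-101 and 2.46, 2.93 and 2.02 CPM with losartan. Its log2 fold change was 2.90 ± 0.43, or 7.45-fold, with an adjusted p of 0.0132. For both chains the Ang II libraries lay above all controls.

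Col9a2, a chain of the cartilage collagen IX, had 7, 8 and 9 reads in the control libraries and 51, 41 and 58 under Ang II. Col9a2 had 0.292, 0.431 and 0.375 CPM in control hearts, 1.94, 1.70 and 2.17 CPM under Ang II, 1.31, 1.26 and 2.45 CPM with EHP-101 and 0.930, 0.962 and 0.337 CPM with losartan. With Ang II the log2 fold change was 2.40 ± 0.41 with an adjusted p of 0.0251 by edgeR's quasi-likelihood test. Of the other collagen IX chains, Col9a3 had a log2 fold change of 0.44 ± 0.43 with overlapping groups, and Col9a1 had 7, 0 and 5 reads in control and 2, 6 and 31 in Ang II libraries and was not tested. Col20a1 had 0.86 ± 0.36, also with overlap.

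Collagen IV, the sheet of the basement membrane, had the highest summed level per kilobase of any class in control hearts. None of its 6 chains passed under Ang II in edgeR. Col4a1 and Col4a2 form the common trimer, and their genes lie head to head on chromosome 8 with 22 bases of exon in common. Col4a1 had 589.9, 424 and 692 CPM in control hearts, 999.7, 838 and 1067 CPM under Ang II, 535, 1081 and 888 CPM with EHP-101 and 443, 893 and 1057 CPM with losartan. Col4a2 had 411, 278 and 488 CPM in control hearts, 661, 585 and 687 CPM under Ang II, 397, 738 and 632 CPM with EHP-101 and 294, 626 and 698 CPM with losartan. Both were above the controls in all 3 Ang II libraries, with log2 fold changes of 0.77 ± 0.31 and 0.72 ± 0.31 and adjusted p of 0.250 and 0.266 by edgeR's quasi-likelihood test. Per kilobase, Col4a2 stood at 0.774 ± 0.0299 of Col4a1 in control hearts and 0.753 ± 0.0313 under Ang II, within the spread of replicates. The other 4 chains, Col4a3 to Col4a6, had log2 fold changes of 0.35 to 0.69. They too lie in head-to-head pairs, Col4a3 with Col4a4 on chromosome 1, 71 bases apart, and Col4a5 with Col4a6 on chromosome X, 1308 bases apart.

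Relative to Col1a1 and per kilobase, Col4a1 stood at 5.03 ± 1.99 in control hearts and 2.28 ± 0.585 under Ang II, with no overlap. It was 2.85 ± 1.22 with EHP-101 and 4.03 ± 1.47 with losartan. Col4a1 was the more abundant of the pair in all 12 libraries, by 1.90 to 7.30 times.

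Collagen VI is assembled from Col6a1, Col6a2 and 1 further chain, most often Col6a3. Col6a1 had 144, 83.9 and 151 CPM in control hearts, 281, 209 and 269.6 CPM under Ang II, 162, 188 and 232 CPM with EHP-101 and 117, 187 and 175 CPM with losartan. Col6a2 had 142, 75.2 and 145 CPM in control hearts, 246, 203 and 243 CPM under Ang II, 142, 164 and 209.8 CPM with EHP-101 and 90.7, 170.5 and 168 CPM with losartan. Col6a3 had 67.6, 22.6 and 79.5 CPM in control hearts, 163, 113 and 148 CPM under Ang II, 85.0, 100.3 and 109 CPM with EHP-101 and 65.6, 103 and 102 CPM with losartan. For each of these the Ang II libraries lay above all controls. The log2 fold changes were 1.0 ± 0.24, 0.93 ± 0.28 and 1.32 ± 0.35, with adjusted p of 0.10, 0.153 and 0.126 by edgeR's quasi-likelihood test, so none passed. Per kilobase, Col6a2 stood at 0.499 ± 0.0251 of Col6a1 in control hearts and 0.483 ± 0.0265 under Ang II, and Col6a3 at 0.0985 to 0.192 of it in the control libraries against 0.199 to 0.212, without overlap. Col6a6, an alternative to Col6a3, had a log2 fold change of 0.17 ± 0.52 with overlapping groups.

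The multiplexins are basement membrane proteoglycans, and collagen XVIII is the source of endostatin. Col15a1 had 144, 73.6 and 196 CPM in control hearts, 280.0, 219 and 264 CPM under Ang II, 145, 173 and 202 CPM with EHP-101 and 78.6, 210.3 and 228 CPM with losartan. Col18a1 had 23.9, 11.5 and 27.2 CPM in control hearts, 48.1, 29.4 and 65.4 CPM under Ang II, 30.5, 28.6 and 31.0 CPM with EHP-101 and 15.2, 39.9 and 26.9 CPM with losartan. Both were above the controls in every Ang II library, with log2 fold changes of 0.88 ± 0.37 and 1.18 ± 0.37 and adjusted p of 0.257 and 0.170 by edgeR's quasi-likelihood test. Col7a1, the anchoring fibril chain of skin, was scarce. Col7a1 had 1.59, 0.646 and 1.59 CPM in control hearts, 4.21, 2.49 and 2.36 CPM under Ang II, 3.72, 2.24 and 3.77 CPM with EHP-101 and 1.35, 1.46 and 1.86 CPM with losartan. Its log2 fold change was 1.22 ± 0.35, with an adjusted p of 0.147.

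The transmembrane chains are anchored in the cell surface, and no tested member of them passed. Col13a1 had 1.67, 1.61 and 1.71 CPM in control hearts, 2.05, 1.66 and 1.46 CPM under Ang II, 1.82, 1.82 and 1.40 CPM with EHP-101 and 1.77, 1.84 and 0.759 CPM with losartan. Col23a1 had 4.30, 1.45 and 4.96 CPM in control hearts, 4.33, 2.53 and 3.49 CPM under Ang II, 4.4, 2.99 and 2.98 CPM with EHP-101 and 2.28, 4.64 and 2.15 CPM with losartan. Control and Ang II libraries overlapped for both, and the log2 fold changes were 0.05 ± 0.30 and -0.06 ± 0.41, small differences whose sign turned under some of the alternatives. Col25a1, known from neurons, had -0.57 ± 0.36. Collagen XXVIII is known from peripheral nerve and collagen XXVI from testis and ovary. Of these, Col28a1 had a log2 fold change of 1.32 ± 0.42 and Col26a1 of 0.93 ± 0.46, with adjusted p of 0.175 and 0.313 by edgeR's quasi-likelihood test. Col28a1 had 1.09, 0.646 and 1.46 CPM in control hearts, 3.99, 1.62 and 2.47 CPM under Ang II, 2.62, 4.02 and 2.80 CPM with EHP-101 and 2.97, 3.22 and 1.35 CPM with losartan. Col26a1 had 0.209, 0.753 and 0.167 CPM in control hearts, 0.721, 0.748 and 0.60 CPM under Ang II, 0.381, 0.561 and 0.438 CPM with EHP-101 and 0.511, 0.627 and 0.590 CPM with losartan. Col28a1 lay above the controls in all Ang II libraries, and for Col26a1 control replicate 2 was the highest of the 12.

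**Figure D3:**
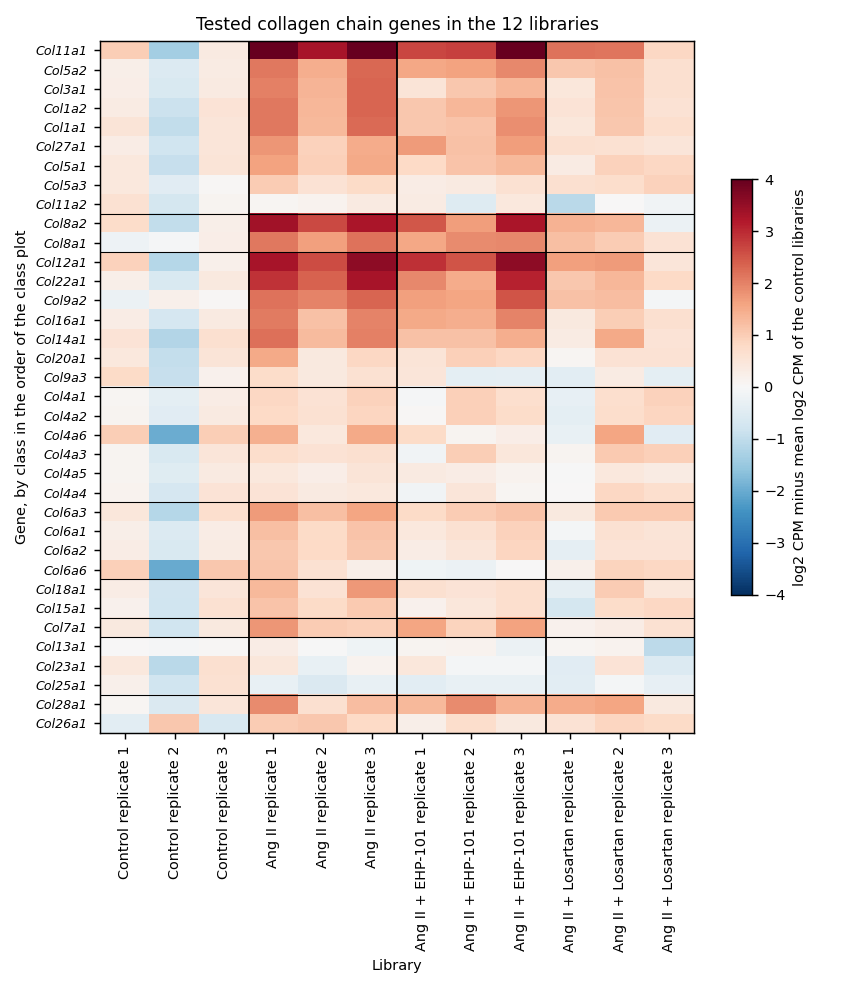
Log2 CPM of the 36 tested collagen chain genes in each of the 12 libraries, minus the mean log2 CPM of the 3 control libraries, with classes separated by lines; values above 4 take the end colour. Control replicate 2 is the lowest library for 31 of 36 genes, and the darkest red cells lie in the fibrillar, short-chain network and FACIT blocks.

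The make-up of the collagen pool was taken as each class's share of the summed level per kilobase. Fibrillar chains made up 30.3, 24.9 and 27.9% of it in the control libraries and 41.9, 36.0 and 45.3% under Ang II. They made up 36.2, 31.7 and 38.2% with EHP-101 and 38.6, 32.9 and 26.2% with losartan. Collagen IV went the other way, with 42.4, 50.1 and 44.5% in the control libraries, 30.8, 36.7 and 30.0% under Ang II, 34.0, 44.6 and 34.8% with EHP-101 and 35.6, 41.5 and 49.5% with losartan. Neither share overlapped between control and Ang II libraries, and both overlapped between losartan and every other group.

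The short-chain network made up 1.65, 2.76 and 1.85% of the pool in control, 3.83, 3.71 and 3.64% in Ang II, 4.70, 3.82 and 4.25% in EHP-101 and 4.55, 2.36 and 1.71% in losartan libraries. The FACIT chains made up 2.51, 1.57 and 2.28% in control and 3.69, 2.81 and 3.26% in Ang II libraries. Both shares were higher in every Ang II than in any control library. Collagen VI made up 15.60, 14.09 and 14.66% in control and 13.32, 14.02 and 11.77% in Ang II libraries, and between 11.7% and 15.6% in all 12. Its share was lower in every Ang II than in any control library, by a narrow margin. Shares of a whole move together, so a lower share of collagen IV is no lower level: its summed level averaged 149 RPKM in control and 245 RPKM in Ang II hearts. The fibrillar chains averaged 93.4 RPKM and 319 RPKM. Per kilobase, collagen IV was thus the larger class in control hearts and the fibrillar class under Ang II.

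**Figure D4:**
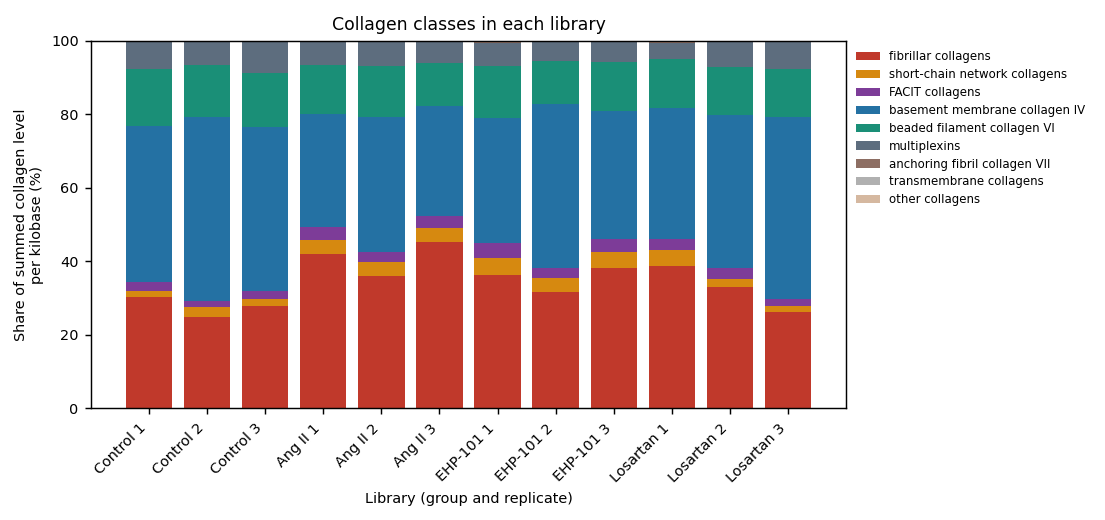
Share of each collagen class in the summed collagen level per kilobase, with a bar for each library. The fibrillar share is 24.9% to 30.3% in the control libraries and 36.0% to 45.3% under Ang II, and the collagen IV share 42.4% to 50.1% and 30.0% to 36.7%.

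Genes that build, link and remove collagen were counted by fixed lists. Among all tested genes, 0.515% were called higher under Ang II. Of 14 genes that process procollagen and crosslink fibrils, 4 rose under Ang II. These were Lox (3.52 ± 0.43, adjusted p 0.00435) and Loxl3 (1.91 ± 0.23, 0.00435), lysyl oxidases that start the crosslinks, Loxl1 (1.02 ± 0.17, 0.0248), and Adamts2 (1.26 ± 0.21, 0.0239), which trims the amino end of procollagen, all log2 fold changes by edgeR's quasi-likelihood test. Of 21 genes for biosynthesis in the endoplasmic reticulum 1 rose, the prolyl hydroxylase subunit P4ha3 (3.27 ± 0.57, 0.0254). Sparc, P3h3 and P3h2 from that list had log2 fold changes of 1.0, 0.81 and 0.83 and did not pass. Medians over the lists were 0.69 for processing and 0.25 for biosynthesis, against -7e-04 for all tested genes.

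Of 15 proteins that bind and organise fibrils, 2 rose, where 0.515% of all tested genes did. They were asporin (Aspn, 2.14 ± 0.31, adjusted p 0.0100) and biglycan (Bgn, 1.22 ± 0.24, 0.0471). Lum at 1.15 ± 0.23 and Ogn at 0.89 ± 0.20 did not pass, with adjusted p of 0.0525 and 0.0701, and the list's median was 1.15. Of 12 proteases and inhibitors, 3 rose: Mmp2 (1.62 ± 0.23, 0.00988), Mmp14 (1.25 ± 0.19, 0.0142) and the inhibitor Timp1 (2.5 ± 0.45, 0.0299), by edgeR's quasi-likelihood test. Ctsk had 1.35 ± 0.29 and an adjusted p of 0.0703, and the median was 0.64. Of 10 collagen receptors 0 passed in edgeR, with 2 at an unadjusted p under 0.05, the integrin chain Itga11 (1.77 ± 0.36, adjusted p 0.0530) and the uptake receptor Mrc2 (1.06 ± 0.23, 0.0718). Of 16 partners of the basement membrane 0 passed, with an unadjusted p under 0.05 for 2 that were higher and 1 that was lower, where 9.09% and 8.53% of all tested genes were, and the median was 0.33. The partner Nid1, which links collagen IV to laminin, had 0.90 ± 0.26, and the laminin chain Lamb3 had -0.60 ± 0.15.

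Levels of cell type markers are given beside these chains. Of 9 markers of activated fibroblasts, 5 rose under Ang II, Postn, Cthrc1, Cilp, Thbs4 and Ltbp2, where 0.515% of all tested genes did. The list's summed level was 418 to 463 CPM in control, 1396 to 2136 CPM in Ang II, 1271 to 1787 CPM in EHP-101 and 575 to 1077 CPM in losartan libraries. The 12 general fibroblast markers summed to 2428 to 4094 CPM in control, 3901 to 4765 CPM in Ang II, 3690 to 4091 CPM in EHP-101 and 2913 to 3552 CPM in losartan libraries. The 10 markers of atrial tissue summed to 343 to 1999, 1667 to 2981, 582 to 1232 and 115 to 2216 CPM in control, Ang II, EHP-101 and losartan libraries. All markers of these 3 lists had reads in all 12 libraries. The 10 markers of pericytes and smooth muscle summed to 974 to 1719 CPM in control and 1675 to 1829 CPM in Ang II libraries, and the 10 macrophage markers to 483 to 695 and 527 to 685 CPM. The 10 cardiomyocyte markers summed to 81388 to 88235 and 66435 to 79953 CPM. The part of cell make-up in the collagen differences was not tested. With the atrial score as a covariate, 11 chains were called under Ang II, where 0.372% of all tested genes were called higher. The score was 1.05, -1.68 and 1.13 in control and 1.86, 1.21 and 1.04 in Ang II libraries. It was thus not independent of the groups, and the fit cannot separate the 2.

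EHP-101 was compared with Ang II alone. No chain passed in edgeR's quasi-likelihood test, as for all 15336 tested genes, of which 0% were called. Col3a1 was the only chain below an unadjusted p of 0.05, where 5.11% of all tested genes were lower and 2.11% higher. Its level was 756 ± 201 CPM (SD, n = 3) with EHP-101 and 1453 ± 462 CPM under Ang II alone, a log2 fold change of -0.94 ± 0.31 with an adjusted p of 0.473. All 3 EHP-101 libraries lay below all 3 Ang II libraries for Col3a1, Col6a3, Col6a6, Col15a1 and Col26a1, or 5 of 36 chains, where 9.74% of all tested genes did so. The median log2 fold change was -0.29 over the 36 chains and 3e-04 over all tested genes, and 31 chains lay below 0 against 50% of all tested genes. Class medians lay between -0.61 for the multiplexins and 0.10 for Col7a1. Several chains stood close to their Ang II level, with differences of -0.14 ± 0.43 for Col12a1, -0.13 ± 0.28 for Col16a1, -0.19 ± 0.19 for Col8a1 and 0.10 ± 0.28 for Col27a1.

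Other lists differed in the same comparison. For 6 of 10 macrophage markers all EHP-101 libraries lay below all Ang II libraries, where 9.74% of all tested genes did so. The macrophage list summed to 241 to 459 CPM with EHP-101. For 8 of 10 atrial markers all EHP-101 libraries likewise lay below all Ang II libraries. At an unadjusted p under 0.05, 6 macrophage markers and 1 atrial marker were lower, against 5.11% of all tested genes. All markers of both lists had reads in all 12 libraries, and their part in the collagen values was not tested.

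Ratios between fibrillar chains were set beside those under Ang II alone. Relative to Col1a1 and per kilobase, Col3a1 stood at 1.67 to 2.38 in the EHP-101 libraries and 2.28 to 2.59 under Ang II alone, and Col5a2 at 0.470 to 0.632 and 0.446 to 0.499. Both pairs of ranges overlap. Replicate 3 was the highest EHP-101 library for 23 of the 36 chains and replicate 1 the lowest for 21.

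Losartan was compared with the same Ang II libraries. No chain passed in edgeR's quasi-likelihood test, and again 0% of all tested genes were called. At an unadjusted p under 0.05, 18 of 36 chains were lower, against 6.14% of all tested genes, and 0 were higher, against 2.26%. In 19 chains every losartan library lay below every Ang II library, against 10.5% of all tested genes. The median log2 fold change was -0.67 over the 36 chains and 0.003 over all tested genes, and 33 lay below 0 against 49.4%. The smallest adjusted p was 0.166 for Col8a1, whose level was 87.7 ± 18.5 CPM (SD, n = 3) with losartan against 180.1 ± 34.2 CPM, a log2 fold change of -1.04 ± 0.20.

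Class medians under losartan were -1.59 for the short-chain network, -1.10 for FACIT and -1.01 for fibrillar chains. They were -0.66 for collagen VI and -0.20 for collagen IV. Col11a1 and Col8a2 had the largest differences, -2.35 ± 0.55 and -2.14 ± 0.48, followed by Col22a1 at -1.85 ± 0.40 and Col12a1 at -1.84 ± 0.45. Col1a1, Col1a2 and Col3a1 had -1.19 ± 0.37, -1.22 ± 0.34 and -1.17 ± 0.31, with adjusted p of 0.365, 0.316 and 0.316 by edgeR's quasi-likelihood test. Of the collagen IV chains 0 of 6 lay below all Ang II libraries, against 10.5% of all tested genes. With 6 chains, a count of 0 is near that share. This comparison shares the Ang II libraries with those above, so a high Ang II value enters each of them. Of the markers, 7 of 9 for activated fibroblasts and 6 of 12 for fibroblasts were lower at an unadjusted p under 0.05. So were 4 of 7 tested ones for valve and cartilage, 3 of 10 for macrophages and 3 of 10 for Schwann cells, against 6.14% of all tested genes. The medians of these lists were -1.59, -0.47, -1.66, -0.50 and -0.34 on the log2 scale. Of the atrial markers 1 of 10 was lower by that measure. It was 0 for the endothelial, pericyte and smooth muscle, cardiomyocyte, epicardial and adipocyte lists. Comp is among the markers of activated fibroblasts and also among those of valve and cartilage. As with EHP-101, 6 of 10 macrophage markers were lower in every losartan library than in any Ang II library, where 10.5% of all tested genes were. The summed fibroblast markers lay below all Ang II libraries in each losartan library, and the summed macrophage markers, at 381 to 547 CPM, overlapped with them. Their part in the collagen values was not tested. Replicate 2 was the highest losartan library for 26 of 36 chains and replicate 1 the lowest for 24.

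The count of calls for losartan depended on the tool. DESeq2 called 8 chains lower than under Ang II alone (Col11a1, Col16a1, Col1a2, Col22a1, Col3a1, Col5a2, Col8a1 and Col8a2), where it called 0.697% of all its tested genes lower. The voom test of limma with quality weights for the libraries called 13 chains lower, and 3.06% of all genes. Neither called any chain for EHP-101 against Ang II alone. There DESeq2 called 0.31% of its tested genes lower and 0.0548% higher, and voom with quality weights called 0%, so a count of 0 chains is near these shares.

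Against the control group, EHP-101 hearts had 6 chains called higher by edgeR's quasi-likelihood test, where 0.3% of all tested genes were. They were Col5a2 (1.65 ± 0.26, adjusted p 0.0255), Col8a1 (1.78 ± 0.20, 0.00504), Col12a1 (2.84 ± 0.48, 0.0306), Col16a1 (1.59 ± 0.29, 0.0422), Col22a1 (2.33 ± 0.43, 0.0422) and Col9a2 (2.19 ± 0.42, 0.0472). Of these, Col9a2 entered the test without any control library above the filter's limit, so the filter favoured a call as higher. Col1a1, Col1a2 and Col3a1 had log2 fold changes of 1.25 ± 0.37, 1.30 ± 0.34 and 0.95 ± 0.31 and did not pass. Losartan hearts had 0 chains called against control, as for all tested genes (0%), and 10 of 36 at an unadjusted p under 0.05 and higher, against 5.54%. In 7 chains every losartan library exceeded every control library, against 8.27% of all tested genes. Col8a1 had the smallest unadjusted p among the chains, 0.000420, with a log2 fold change of 0.93 ± 0.20 and an adjusted p of 0.456, and DESeq2 called Col8a1 alone, with 0.154% of its tested genes higher. These comparisons share the control libraries with each other and with that of Ang II.

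The difference between the treatments themselves was tested as EHP-101 minus losartan, both with Ang II. The groups compared share no library with those of Ang II minus control. Both comparisons came from the same fit of all 12 libraries, with a common filter, scaling and estimate of spread. The calls under Ang II were thus not independent of the EHP-101 and losartan libraries. No chain passed in edgeR's quasi-likelihood test, as for all tested genes (0%). At an unadjusted p under 0.05, 10 of 36 chains were higher with EHP-101, against 3.07% of all tested genes, and 0 were lower. In 11 chains every EHP-101 library exceeded every losartan library, against 6.57% of all tested genes, and in 2, Col5a3 and Col6a6, every EHP-101 library lay below, against 6.74%. The 10 chains called under Ang II had log2 fold changes of 0.23 to 1.70 here, with a median of 1.07, and 8 of them did not overlap. The other 26 tested chains had a median of 0.13, with 3 higher and 2 lower without overlap.

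**Figure D5:**
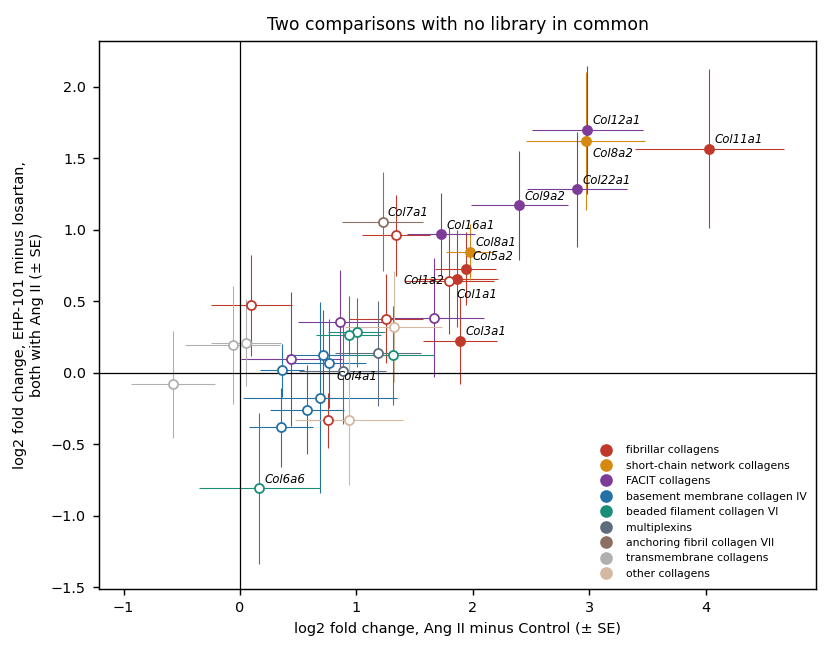
Log2 fold change of the 36 tested collagen chain genes in Ang II minus control (x axis) and in EHP-101 minus losartan, both with Ang II (y axis), with SE bars; filled points were called under Ang II. The 10 filled points lie at 0.23 to 1.70 on the y axis, and no chain passed the adjusted threshold in that comparison.

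Col8a1 had the smallest adjusted p of these differences, 0.506, with 158 ± 21.9 CPM with EHP-101 and 87.7 ± 18.5 CPM with losartan (SD, n = 3) and a log2 fold change of 0.85 ± 0.20 by edgeR's quasi-likelihood test. The largest differences were those of Col12a1 (1.70 ± 0.45), Col8a2 (1.62 ± 0.48), Col11a1 (1.57 ± 0.56), Col22a1 (1.28 ± 0.40) and Col9a2 (1.17 ± 0.38). The main fibrillar chains had smaller differences between the treatments, 0.64 ± 0.37 for Col1a1, 0.66 ± 0.34 for Col1a2 and 0.23 ± 0.31 for Col3a1. Col7a1 had 1.06 ± 0.34 and Col27a1 0.96 ± 0.29, and Col4a1 had 0.07 ± 0.31 with overlapping groups. DESeq2 called Col8a1 alone, with 0.0949% of its tested genes higher.

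The calls under Ang II depended on which libraries were used. With each of the 12 libraries left out in turn, the number of chains called ranged from 1 to 14. The share of all tested genes called higher in these fits ranged from 0.0514% to 0.883%, and the number called in either direction from 8 to 151. The chains called were 4, 2 and 3 without control replicate 1, 2 or 3, 1 without Ang II replicate 1 or 3, and 14 without Ang II replicate 2. Col8a1 was called in all 12 of these fits, with a log2 fold change of 1.87 to 2.12, and Col5a2 in 10, with 1.71 to 2.15. Col11a1, Col12a1 and Col22a1 were called in 8, Col3a1, Col8a2, Col9a2 and Col16a1 in 7, and Col1a2 in 4. The lowest log2 fold change among the 10 chains in these fits was 1.47, for Col16a1. For EHP-101 against control, Col8a1 was again called in all 12, Col5a2 in 7, Col12a1 in 5 and the other 3 chains in 1 each. That count ranged from 1 to 5, with 0.0256% to 0.333% of all tested genes higher, and it was 3 or lower without any library other than Ang II replicate 2 or losartan replicate 3.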

How the data were processed

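RNA was sequenced from 12 mouse heart libraries, 3 in each of 4 groups taken from the sample titles. Per the labels' protocols, 300 ng of RNA went into a TruSeq poly(A) kit that does not mark strand, and single 50 bp reads were taken, so overlapping antisense genes cannot be separated. The submitters' processing notes name fastp 0.20.0, HISAT2 2.1.0, featureCounts 2.0.0, edgeR 3.30.0 and the build GRCm38, and the annotation release is not given in the sources used here. The authors deposited raw counts of reads per gene, which were used unchanged, and 0 sample columns lay outside the map of columns to samples.

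The collagen chains, classes, lists and tests were chosen with earlier results of these data known. In R 4.3.3, edgeR 4.0.16 filtered low counts (filterByExpr), scaled libraries by TMM and fitted all 12 libraries in 1 robust quasi-likelihood model with a mean per group. The common biological coefficient of variation was 0.189. Tests were two-sided, with Benjamini-Hochberg adjustment over the 15336 tested genes and a threshold of 0.05. SE is the log2 fold change divided by the square root of F. Levels per kilobase used the summed exon length of GENCODE M21. Of the members, 13 share exon bases with another gene, at most 6.07% of their length. Promoters came from RefSeq. The scripts were tested on simulated data.

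Values in every library are given for chains called in any of the 6 comparisons, the 2 most abundant chains of each class, and a fixed list of the main collagen I, III, IV, V, VI, VIII, XII, XIV, XV and XVIII chains. From each pathway list up to 4 genes with the smallest p under Ang II are named. Alternatives were other scalings (RLE, library size alone), DESeq2 1.42.0, limma 3.58.1 (voom, with and without quality weights), no filter or a minimum mean of 5 CPM, a block for the replicate number, the compared groups alone, an atrial marker score as a covariate, a minimum change of 1 on the log2 scale, and leaving out each library.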

Additional observations from a re-analysis of the deposited data

How the results depend on the processing

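The number of chains called under Ang II, 10 of 36, was 20 in DESeq2 and 26 in voom with quality weights. Both had all 10 among them, and 3.3% and 17.1% of all genes were called. The 20 were all higher, and the 26 were 25 higher and 1 lower. Both counts exceed the tested fibrillar, short-chain network and FACIT chains together, so chains of other classes were called there too. The number called was 3 in the compared groups alone, all among the 10 (0.134% of all genes), and 1 to 14 without single libraries. The other 8 settings gave 7 to 11, where 0.333% to 0.627% of all genes were called. For losartan against Ang II alone, 0 chains became 8 in DESeq2, 13 with quality weights and 1 with no filter. Of all genes, 0.697%, 3.06% and 0.105% were called lower in these fits. For EHP-101 against control, 6 chains were called, with 0.3% of all genes called higher. The count was 1 with library size alone (0.137% of all genes), 13 in DESeq2 (2.15%) and 3 with a mean of at least 5 CPM (0.323%). It was 14 with the atrial score (1.57%), 1 in the compared groups alone (0.0954%), and 1 to 5 without single libraries (0.0256% to 0.333%). DESeq2 called 1 chain for losartan against control and 1 for EHP-101 against losartan, with 0.154% and 0.0949% of its tested genes higher. The cause of these differences was not tested. EHP-101 against Ang II alone stayed at 0 under each setting run, where 0% to 0.365% of all genes were called.

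The median log2 fold change under Ang II of the short-chain network was 2.98 in DESeq2 and 2.96 with no filter, where Col10a1 was tested too. Without single libraries the medians were 1.55 to 2.1 for fibrillar, 0.27 to 0.89 for collagen IV, 2.29 to 2.64 for short-chain network, 1.47 to 1.97 for FACIT and 0.73 to 1.13 for collagen VI chains. Col13a1 turned to -0.0198 with quality weights and -0.12 with the atrial score, and ranged from -0.0912 to 0.166 without single libraries. Col23a1 turned to 0.0784 with library size alone and 0.0453 with voom, and ranged from -0.42 to 0.26. Over 25 named chains, 454 of 542 values kept direction and side of the threshold, 56 fell below it, 24 passed it and 8 turned.

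With the replicate number as a block, 10 chains were called under Ang II, 9 of them shared, and 5 for EHP-101 against control. Of all genes, 0.346% and 0.17% were called higher there. The class medians under Ang II were 1.83, 0.65, 2.5, 1.73 and 0.98 in the order above. Libraries of the same number correlated above 0.1 in 5 of 18 pairs, against 10 of 36 other pairs, so the numbers were not taken as a pairing.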

Other observations

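The untested chains were not spread evenly over the libraries. Col2a1, the main fibrillar chain of cartilage, had 280 reads in Ang II replicate 3 and 0 to 14 in each of the other 11 libraries. Col9a1, which sits on Col2a1 fibrils, had 31 reads there against 0 to 7 elsewhere, and Col10a1 had 16 against 0 to 2. Acan, the large proteoglycan of cartilage, had 155 reads in that library and 1 to 55 in the others. The 10 valve and cartilage markers summed to 7.75 to 41.7 CPM in control, 67.3 to 138 CPM in Ang II, 58.5 to 135 CPM in EHP-101 and 21.4 to 36.5 CPM in losartan libraries. Of these markers Matn1 was at 0 in 11 libraries and Snorc in 9. Comp is among them and also among the markers of activated fibroblasts. The fibrillar chain Col24a1 had 2, 1 and 4 reads in the control, 17, 5 and 17 in the Ang II, 10, 7 and 7 in the EHP-101 and 4, 5 and 3 in the losartan libraries.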
